A study of Solanum lycopersicum with 24 samples.

Results

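The transcript response of wild-type (WT) tomato leaves to a short heat stress (HS) was described from 6 of the 24 RNA-seq libraries of the series, 3 from leaves kept at 25°C for 1 h (control) and 3 from leaves held at 40°C for 1 h (HS). Genes entered if their reads added up to 10 or more in these libraries, which left 22692 of the 34075 genes listed. The plants were Solanum lycopersicum cv. Moneymaker, 6 weeks old and of the wild type. The other 18 libraries come from the CRISPR mutants rs2z35, rs2z36 and rs2z35 36, which lack the splicing factors RS2Z35, RS2Z36 or both, under the same conditions, and were used only to set their HS response beside that of WT. Leaves were detached from the plant before the treatment, so the response is that of detached leaves. The leaves came from 6 plants per the labels, which do not say how plants were spread over the libraries, so the p-values measure the spread between these libraries.

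In plant cells, heat unfolds proteins and releases heat stress transcription factors (HSFs) from the chaperones that hold them inactive. The HSFs then switch on genes for chaperones. Small heat shock proteins (sHSPs) bind unfolding proteins, HSP70 refolds them with the help of J-domain proteins, and HSP90 matures signalling proteins. In tomato, HSFA2 accumulates during HS and raises the expression of chaperone genes further.

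The libraries held between 17674690 and 21609179 counts. In HS the 10 most abundant genes took between 13.9% and 14.9% of the counts, against 4.61% to 4.93% in control. The HS counts were adjusted with ComBat-Seq before deposit and the control counts were not, so the spread between HS libraries is that after adjustment, with a median SD of log2 CPM of 0.137, against 0.12 in control. Levels are in CPM, read counts relative to library size, scaled with the trimmed mean of M-values (TMM), and are not divided by gene length. Leaf markers stood high in both groups: the Rubisco small subunit gene Solyc02g063150 had 2582, 2651 and 2920.2 CPM in control and 2228, 2472 and 2466 CPM in HS. The groups did not overlap, but the difference was not called (log2FC -0.19 ± 0.09 SE, adjusted p = 0.113). The 3 described genes for chlorophyll a-b binding proteins summed to 3744 CPM in control and 3037 CPM in HS. The 5 terpene synthase genes, which mark glandular trichomes, summed to 228 and 160 CPM, and the 7 phloem protein 2 genes to 21.0 and 28.7 CPM. In such bulk samples, fewer cells of a type and less RNA per cell cannot be told apart.

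A gene was called higher or lower when its log2FC (HS over control) was above 1 or below -1 with an adjusted p below 0.01 in edgeR's quasi-likelihood test. By this rule 3055 genes (13.5% of those tested) were higher in HS and 2634 (11.6%) were lower. With total counts as library size in place of TMM, the median log2FC of all genes moved by -0.76, and the split became 1547 higher and 7871 lower. Directions below are therefore relative to the bulk of the genes, and where the direction of a list described by its counts turned with that scaling, this is stated beside the counts.

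The increases reached further than the decreases. A log2FC above 5 was found in 369 genes called higher, against 54 genes called lower by more than 5. Beyond 7 there were 156 and 5 genes, and beyond 9 there were 69 and 0. Of the 369, 156 and 69 genes, 113, 34 and 10 had 0 counts in control, so the size of their fitted change is uncertain. The called-higher genes together took 6.28% ± 0.123 (SD, n = 3) of the counts in control and 51.5% ± 1.46 in HS. The called-lower genes went from 16.4% ± 0.557 to 2.91% ± 0.214 of the counts. These shares describe genes chosen by the same comparison and are no test of it.

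**Figure D1:**
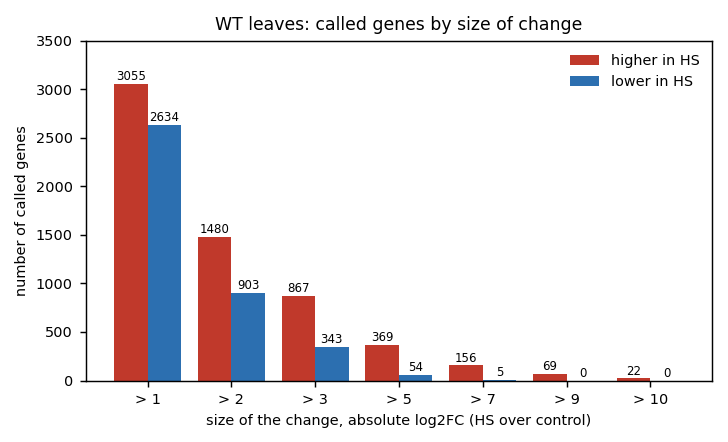
Number of genes called higher (red) and lower (blue) in WT HS, by absolute log2FC above the value on the horizontal axis. The counts were similar at the smallest size, 3055 against 2634, and parted with size, to 69 against 0 beyond a log2FC of 9.

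Gene functions could be read for 2388 of the tested genes, those whose description is given in the supplementary tables used here. These tables list genes by the result of earlier tests on the libraries of this series and hold mostly chromosomes 0, 1 and 2. The tests were of HS against control in WT and of the mutants against WT. On chromosome 1, 68.5% of the genes with an adjusted p below 0.05 carried a description, against 3.05% of the others, and on chromosomes 3 to 12 the shares were 4.7% and 2.75%. Of the described genes, 766 (32.1%) were called higher and 547 (22.9%) lower, so a share of called members near 55.0% is the background for any list. Control and HS libraries did not overlap for 90.0% of the described genes and 67.6% of all tested genes, so a lack of overlap alone says little. The selection shaped direction and size as well. The median log2FC was 0.6 over the described genes, against -0.03 over all tested genes. Lists are therefore described by the direction and size of their members' changes, with 0.6 and not 0 as the background for a median. The described genes were sorted into 67 lists by words in their descriptions.

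**Figure D2:**
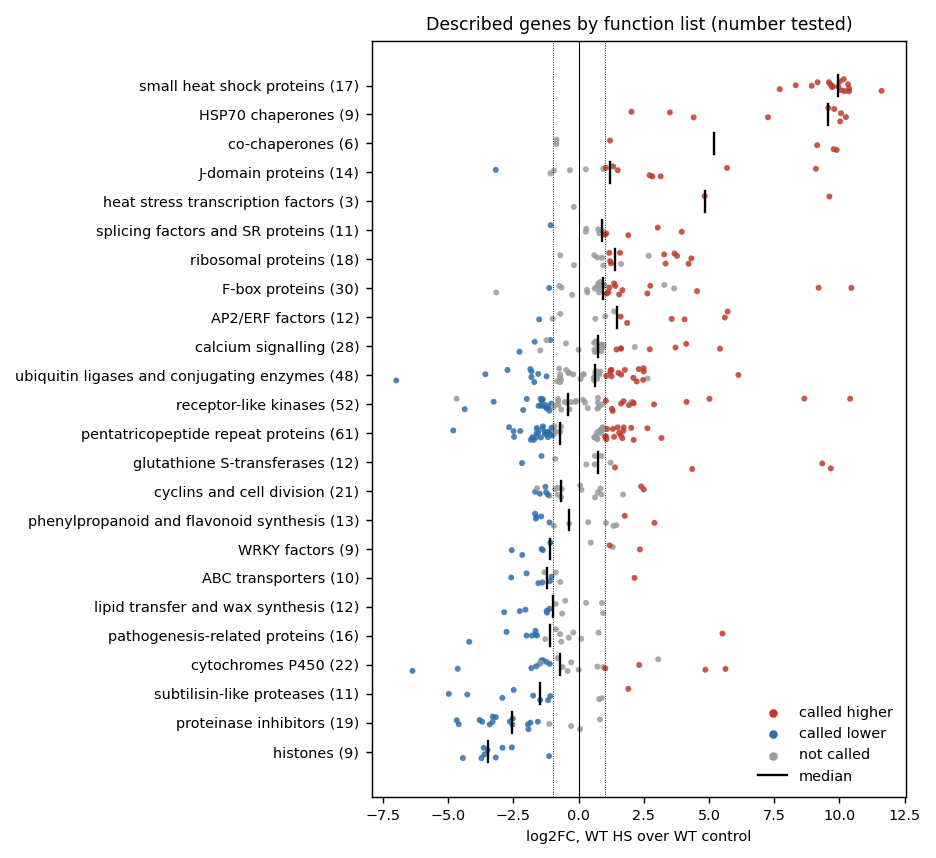
log2FC of every tested member of 24 function lists (a point per gene, red called higher, blue called lower, grey not called; black bars are medians; dotted lines mark 1 and -1). All 17 sHSP genes lie above 7, all 9 histone genes lie below -1, all 9 HSP70 genes lie above 2, and most other lists have members on both sides of 0 (the sHSP farthest to the right had 0 control counts, and its position is a fitted value).

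All 17 described genes of small heat shock proteins were called higher. The log2FC of the 16 with control counts lay between 7.71 and 10.37, and the median over all 17, with the other gene at its lower bound, was 9.74 (9.95 with its fitted value). Together they rose from 148 to 120304 CPM, the sum of the means in control and HS, and from 0.0193% ± 0.00119 to 9.24% ± 0.131 of all counts (SD, n = 3). Proteins of this family work in different compartments, and genes for every compartment named in the descriptions were among those called. The cytosolic class II gene Solyc03g007890 (Le-HSP17.6) had 20.4, 18.03 and 16.4 CPM in control and 19953, 17571 and 19424 CPM in HS. Its lowest HS library lay far above its highest control library (log2FC 10.02 ± 0.16 SE, adjusted p = 1.27e-10). The class I gene Solyc06g076560 had 14.4, 13.6 and 14.9 CPM in control and 12316, 11408 and 12453 CPM in HS, and the gene for a mitochondrial sHSP, Solyc08g078700, had 16.8, 15.2 and 16.3 CPM in control and 12890.3, 11679 and 12827 CPM in HS. Control and HS did not overlap for either, with log2FC of 9.72 ± 0.14 and 9.59 ± 0.14.

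The genes for the other compartments, chosen after their values were seen, reached lower HS levels than these 3. The sHSP of chloroplasts, Solyc03g082420, went from 4.05 ± 0.959 CPM in control to 3278 ± 139 CPM in HS (SD, n = 3). The peroxisomal gene Solyc04g014480 went from 3.89 ± 0.144 CPM in control to 1903 ± 179 CPM in HS. The class III gene Solyc03g123540 went from 5.55 ± 0.246 CPM in control to 4775 ± 306 CPM in HS, and the class IV gene Solyc01g102960, whose products belong to the endoplasmic reticulum, from 6.73 ± 0.766 CPM in control to 8881 ± 365 CPM in HS. The log2FC of these 4 genes were 9.66, 8.93, 9.74 and 10.36. Solyc11g020330, described as leer-sHSP, had a log2FC of 10.37 ± 0.15, with 3.397, 3.63 and 2.77 CPM in control and 4342, 4286 and 4391 CPM in HS. One class I gene, Solyc06g076540, had 0 counts in all 3 control libraries and 831 counts over the 3 HS libraries. Against a floor of 3 counts over the control group it was at least 508-fold higher in HS. It lies among the class I genes numbered Solyc06g076520 to Solyc06g076570, 4 of which were described. Reads from copies alike in sequence cannot be placed with certainty, so the counts of the single copies are uncertain.

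All 9 described HSP70 genes were called higher too, but their increases fell into a wide range, from 2.02 to 10.25. The most abundant gene of the HS libraries, Solyc03g117630, had 31.6, 27.3 and 27.5 CPM in control and 31453, 27627 and 31068 CPM in HS (log2FC 10.03 ± 0.16 SE, adjusted p = 1.23e-10). Solyc11g066100 behaved alike, with 20.3, 17.4 and 16.2 CPM in control and 20154, 17604 and 19714 CPM in HS. Solyc04g011440, whose description names it ethylene-responsive, had 19.8, 17.6 and 17.8 CPM in control and 14146, 13462 and 14439 CPM in HS. All 3 were far lower in every control library than in any HS library. Solyc01g103450 stood apart, as it was already abundant in control, with 611, 621 and 712 CPM in control and 2742, 2429 and 2737 CPM in HS. Its log2FC was 2.02 ± 0.10, the smallest of the 9 HSP70 genes, and it was named for this after its values were seen. Solyc09g075950 had the largest, 10.25 ± 0.21, with 6.46, 5.25 and 3.85 CPM in control and 6721, 6039.6 and 6211 CPM in HS.

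The HSP90 gene Solyc06g036290 was nearly as abundant as the leading HSP70 gene, with 42.7, 42.2 and 48.3 CPM in control and 26105, 23728 and 26159 CPM in HS. The groups were far apart, and its log2FC was 9.16 ± 0.15 (adjusted p = 1.23e-10). Solyc03g115230, described only as a heat shock protein, had 34.4, 31.6 and 29.8 CPM in control and 26556, 23263 and 26605 CPM in HS and a log2FC of 9.64 ± 0.15. Together the 49 described genes of the 6 chaperone lists (sHSPs, HSP70, HSP90, J-domain proteins, co-chaperones and heat shock proteins of no given family) took 0.232% ± 0.00321 of the counts in control and 23.2% ± 0.681 in HS (SD, n = 3).

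The partners of HSP70 responded by member. Of 14 genes for J-domain proteins, which stimulate the ATPase of HSP70, 8 were called higher and 1 lower, with a median log2FC of 1.18. With total counts as library size, 5 were higher and 4 lower. Solyc11g071830 led them with 24, 22.2 and 18.3 CPM in control and 12737, 10565 and 12011 CPM in HS (log2FC 9.10 ± 0.18, adjusted p = 3.1e-10), followed by Solyc03g123560 with 19.04, 17.1 and 19.7 CPM in control and 994, 943 and 941 CPM in HS. Solyc01g079610, described as ERDJ3B, a J-domain protein of the endoplasmic reticulum, had 59.6, 62.1 and 97.1 CPM in control and 505, 486 and 562 CPM in HS. The opposite direction was taken by Solyc02g014860, described as a chaperone protein DnaJ, with 88.1, 78.7 and 49.4 CPM in control and 9.20, 9.35 and 5.36 CPM in HS (log2FC -3.18 ± 0.26, adjusted p = 5.15e-06). All 3 described BAG genes, whose proteins exchange the nucleotide of HSP70, were called higher. Solyc01g095320 had 9.07, 8.42 and 7.45 CPM in control and 7309, 7654 and 8758 CPM in HS, and Solyc06g072430 had 17.99, 16.2 and 11.4 CPM in control and 9557, 7387 and 8888 CPM in HS. Chaperonins moved little: 1 of 5 genes of chaperonins and prefoldins was called, Solyc01g088610 for a chaperonin of 10 kDa, with 129, 134 and 160 CPM in control and 361, 339 and 350.5 CPM in HS (log2FC 1.31 ± 0.10). With total counts as library size that call was lost, and 2 other members were lower.

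**Figure D3:**
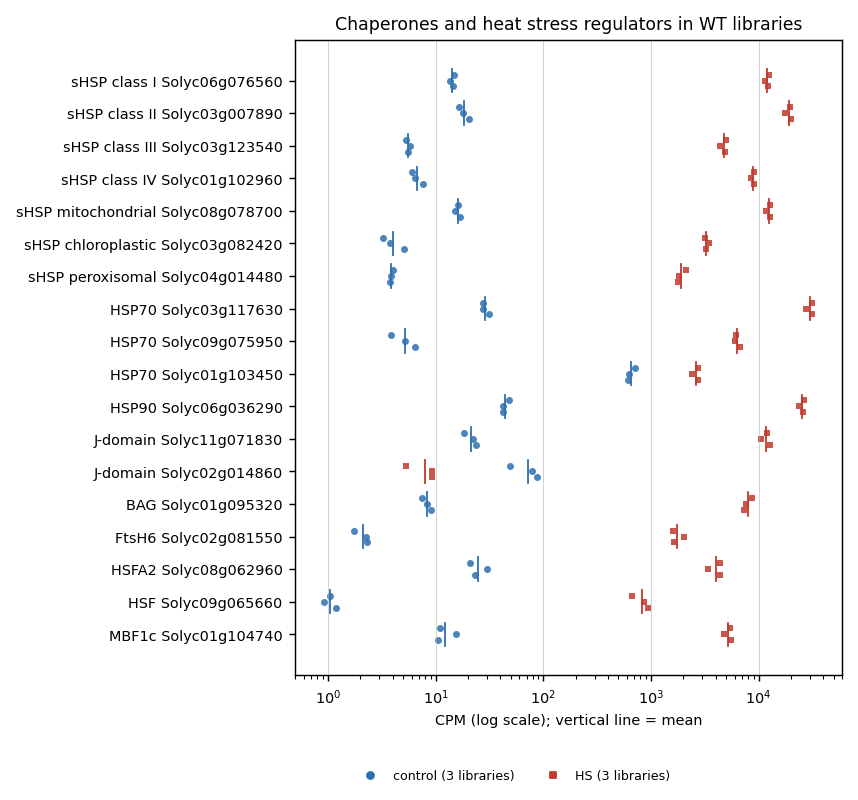
CPM (log axis) of 18 genes for chaperones and heat stress regulators in the 3 control (blue circles) and 3 HS (red squares) WT libraries, with the mean as a line. The HSP70 gene Solyc01g103450 is the only gene shown with more than 100 CPM in control, and the J-domain gene Solyc02g014860 is the only gene lower in HS.

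Regulators of the response were called higher as well. HSFA2 (Solyc08g062960) had 23.1, 30.1 and 21.1 CPM in control and 4338, 3397 and 4366 CPM in HS. It did not overlap between groups (log2FC 7.35 ± 0.20, adjusted p = 2.45e-09). Among the 3 genes described as heat shock transcription factors, Solyc09g065660 was at about 1 CPM in control and had 1.19, 0.916 and 1.04 CPM in control and 940, 871 and 672 CPM in HS. Its log2FC of 9.62 ± 0.20 was larger than that of HSFA2, at a lower level in HS. Solyc02g072000 had 7.32, 7.15 and 7.37 CPM in control and 238, 179.7 and 205 CPM in HS (log2FC 4.83 ± 0.12). The remaining gene, Solyc02g079180, was near the detection limit in both groups, with means from 0.718 ± 0.431 CPM in control to 0.640 ± 0.216 CPM in HS (SD, n = 3), and a difference was not detectable at this depth. The sign of its log2FC of -0.18 turned without control replicate 2 (0.41) or HS replicate 1 (0.01). The coactivator gene MBF1c (Solyc01g104740), linked to heat tolerance in Arabidopsis, had 10.6, 15.4 and 11.1 CPM in control and 5585, 4749.9 and 5416 CPM in HS (log2FC 8.73 ± 0.20, adjusted p = 8.29e-10).

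Of 4 genes for the organelle proteases FtsH and Clp, 1 was called higher, and with total counts as library size 1 was higher and 2 lower. FtsH proteases are membrane-bound zinc proteases that remove damaged proteins, and the gene described as FtsH6, Solyc02g081550, had 2.31, 2.25 and 1.76 CPM in control and 1647, 2018 and 1599 CPM in HS (log2FC 9.69 ± 0.17). The FtsH genes Solyc02g032960 and Solyc02g032970 did not pass the threshold and had log2FC of -0.95 ± 0.09 and -0.98 ± 0.15. Without HS replicate 2 they were called lower, at -1.03 and -1.18, and without control replicate 1 so was Solyc02g032970, at -1.04. The Clp gene Solyc01g102990 was not called either (0.85 ± 0.12).

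Few genes for defence against oxidants and for photosynthesis carried a description, so these families are seen only in part. The ascorbate peroxidase gene Solyc09g007270, whose product removes hydrogen peroxide with ascorbate, had 1.68, 1.76 and 2 CPM in control and 1107, 1373 and 1254 CPM in HS (log2FC 9.42 ± 0.15, adjusted p = 1.23e-10). The 3 superoxide dismutase genes of the same list were not called. Of 12 glutathione S-transferase genes, which couple glutathione to reactive compounds, 4 were called higher and 2 lower, and 3 and 3 with total counts as library size. That share of calls is near the 55.0% over all described genes. Solyc07g056510 had 2.02, 1.69 and 1.60 CPM in control and 1477, 1465 and 1396 CPM in HS, and Solyc02g068900 fell, with 19.5, 14.6 and 13.7 CPM in control and 4.13, 2.86 and 3.60 CPM in HS. The gene described as Rubisco activase, Solyc09g011080, which frees Rubisco from bound sugar phosphates, had 11.8, 11.7 and 10.4 CPM in control and 1552, 1202 and 1096 CPM in HS. HS lay above control in every library (log2FC 6.83 ± 0.17). Of the chlorophyll a-b binding genes, Solyc02g070940 was called lower, with 2052, 2264 and 1857 CPM in control and 854, 1108 and 822 CPM in HS (log2FC -1.15 ± 0.13), and the other 2 were not called. The α-amylase gene Solyc02g066950, for starch breakdown, had 73.9, 69.5 and 58.2 CPM in control and 541, 504 and 535 CPM in HS and a log2FC of 2.97 ± 0.11.

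Described genes of RNA processing took both directions. Of 11 genes for splicing factors and SR proteins, 5 were called higher and 1 lower, with a median of 0.90, and 3 and 1 with total counts as library size. Their share of calls is near the 55.0% over all described genes, whose median was 0.6. U1 small nuclear ribonucleoprotein C, part of the particle that recognises the start of introns, had 6.53, 7.36 and 6.65 CPM in control and 113, 97.5 and 108 CPM in HS in its gene Solyc01g067830 (log2FC 3.95 ± 0.09). The arginine/serine-rich factor gene Solyc01g105140 had 49.3, 48.4 and 53.9 CPM in control and 410.4, 398 and 429.7 CPM in HS (log2FC 3.03 ± 0.09). For RS2Z36 (Solyc09g005980) the values were 52.5, 54.8 and 63.2 CPM in control and 114, 105 and 125 CPM in HS. The groups did not overlap, but the log2FC of 1.01 ± 0.10 sat at the threshold. It was not called without control replicate 1 (0.96), control replicate 2 (0.99) or HS replicate 3 (0.95), nor with total counts as library size (0.25) or with no filter on low counts, where it was just below the threshold. RS2Z35 (Solyc05g054920) was not called, with 189, 181 and 202 CPM in control and 230.3, 218 and 251 CPM in HS and a log2FC of 0.29 ± 0.09, which was negative with total counts as library size. The small nuclear ribonucleoprotein Sm D3 gene Solyc02g062240 was the member called lower, with a log2FC of -1.07 ± 0.15, but not without control replicate 3 (-0.94) or HS replicate 3 (-0.99).

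Pentatricopeptide repeat proteins bind RNA in chloroplasts and mitochondria, and their 61 genes split into 16 called higher and 25 called lower (median -0.71), and into 4 and 32 with total counts as library size (median -1.47). Solyc01g080450 rose from 2.71 ± 0.596 CPM in control to 24.6 ± 2.73 CPM in HS, while Solyc02g070010 fell from 14.2 ± 0.268 CPM in control to 4.84 ± 0.9002 CPM in HS (SD, n = 3). Of 18 ribosomal protein genes, 10 were called higher and 0 lower, and 4 and 1 with total counts as library size. That share of calls is near the 55.0% over all described genes. The 8 members placed on chromosome 0, which holds sequence of no assigned chromosome, had a median log2FC of 3.48, against 0.92 for the 8 on chromosome 1. The chromosome 0 gene Solyc00g019980, described as a chloroplast ribosomal protein, had 0.485, 0.563 and 0.641 CPM in control and 11.8, 8.93 and 10.9 CPM in HS (log2FC 4.21 ± 0.19). Libraries were made from polyadenylated RNA, so these chloroplast sequences are measured only as far as they are carried in such RNA or in nuclear copies.

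Among genes for protein tagging, a few rose by orders of magnitude. F-box proteins select the targets of ubiquitin ligases, and 12 of 30 genes were called higher and 1 lower, but 5 and 5 with total counts as library size. That is a smaller share of calls than the 55.0% over all described genes. Solyc05g010210 had 0.149, 0.282 and 0.321 CPM in control and 361, 328 and 388 CPM in HS (log2FC 10.46 ± 0.18), and Solyc02g079150 had 0.821, 0.916 and 0.561 CPM in control and 545, 388 and 443 CPM in HS. Both were near 0 in control and abundant in every HS library. Ubiquitin ligases and conjugating enzymes were called higher in 15 and lower in 9 of 48 genes, a direction that turned to 7 and 18 with total counts as library size. These shares are near the 32.1% and 22.9% of all described genes. Solyc02g065540 led the increases, with 13.4, 15 and 14.03 CPM in control and 1046, 873 and 1046 CPM in HS (log2FC 6.12 ± 0.12). Solyc02g067680, of the RING/U-box superfamily, fell, with 18.6, 16.2 and 19.4 CPM in control and 2.80, 2.64 and 2.71 CPM in HS (log2FC -2.73 ± 0.12).

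Signalling and transcription factor genes held some of the largest increases outside the chaperones. The MADS-box factor gene Solyc01g098070 (described as AGL21) had 3 counts over the control libraries and 3010 over the HS libraries, a ratio of 1838 after scaling with a 95% exact counting interval from 628 to 8919. The lectin receptor kinase gene Solyc09g061550 had 0.149, 0.176 and 0.160 CPM in control and 252, 201 and 233 CPM in HS (log2FC 10.41 ± 0.17), and the lectin-domain kinase gene Solyc07g055400 had 1.90, 1.51 and 1.16 CPM in control and 742, 505 and 607 CPM in HS. Such kinases sense signals at the plasma membrane. Over the 52 receptor-like kinase genes, however, 13 were called higher and 16 lower (median -0.41), and 8 and 26 with total counts as library size. Their share of calls is near the 55.0% over all described genes. Solyc12g008500, described as receptor-like protein kinase 5, fell, with 62.4, 62.8 and 43.3 CPM in control and 7.73, 5.36 and 4.48 CPM in HS (log2FC -3.26 ± 0.21). Of 12 AP2/ERF genes, ethylene-related transcription factors, 6 were called higher and 1 lower (median 1.48), and 4 and 3 with total counts as library size. Solyc02g090770 had 1.19, 2.15 and 1.32 CPM in control and 85.3, 66.98 and 77.5 CPM in HS, and Solyc01g108240 (ERF D.3) had 2.09, 2.50 and 2.08 CPM in control and 39.1, 37.1 and 35.7 CPM in HS. Of 9 WRKY genes, transcription factors known from defence, 2 were called higher and 5 lower. The background for the AP2/ERF, WRKY and bHLH lists is 32.1% called higher and 22.9% called lower over all described genes. Each of these lists is small, and the AP2/ERF share of calls is near the 55.0% of all described genes. WRKY41 (Solyc01g095630) had 42.4, 48.7 and 56.2 CPM in control and 8.53, 16.4 and 8.08 CPM in HS (log2FC -2.16 ± 0.23). Of 12 bHLH genes 3 were called higher and 5 lower, with the bHLH92 gene Solyc09g083360 rising from 4.23 ± 0.594 CPM in control to 45.6 ± 9.56 CPM in HS and the bHLH076 gene Solyc01g086870 falling from 257 ± 20.2 CPM in control to 67.03 ± 25.2 CPM in HS (SD, n = 3).

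Calcium signalling genes were called higher in 7 and lower in 3 of 28, and in 4 and 5 with total counts as library size. Over all described genes 32.1% were called higher and 22.9% lower, both larger shares than in this list. Calmodulin 5 (Solyc12g099990), a calcium sensor, had 34.2, 32.8 and 40.6 CPM in control and 236, 219.8 and 257 CPM in HS (log2FC 2.73 ± 0.11). The calcium-binding PBP1 gene Solyc10g006700 had 3.58, 3.91 and 3.57 CPM in control and 60.8, 84.97 and 47.6 CPM in HS (log2FC 4.12 ± 0.21). Among MAP kinase cascade genes, the MAP kinase kinase kinase gene Solyc02g064980 rose from 0.816 ± 0.414 CPM in control to 21.5 ± 2.12 CPM in HS, and another, Solyc01g111880, fell from 70.7 ± 38.9 CPM in control to 9.36 ± 5.26 CPM in HS (SD, n = 3). Of 9 transposon-related genes, 5 were called higher and 0 lower, and 3 and 1 with total counts as library size. That share of calls is near the 55.0% over all described genes. The gene Solyc09g015010, with a Gag domain of retrotransposons, had 2.31, 2.04 and 1.88 CPM in control and 1891, 1748 and 1984 CPM in HS (log2FC 9.81 ± 0.14). Its number follows that of the class I sHSP gene Solyc09g015000, named after its values were seen, which had 9.41, 9.19 and 8.74 CPM in control and 10669.8, 10029.7 and 10769 CPM in HS. The library kit does not mark strand, so a gene and an overlapping neighbour cannot be told apart by their reads. The copia-like gene Solyc01g010220 had 2.87, 3.63 and 2.73 CPM in control and 211, 178 and 209 CPM in HS (log2FC 6.01 ± 0.13).

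Among the lists of described genes, the most uniform decrease was that of the histones. All 9 described histone genes, 7 for histone H3, 1 for H2A and 1 for H2B, were called lower, with log2FC between -4.44 and -1.14 and a median of -3.49. Of these, 8 were on chromosome 1 and 1 on chromosome 2, where descriptions went mostly to genes that changed in earlier tests. Histone genes without a description are not seen, so the 9 calls are no test of the whole family. Histones package DNA, and the main supply is made in cells that copy their DNA. The histone H2A gene Solyc01g099410 had 495, 499.9 and 671 CPM in control and 74.5, 67.5 and 77.9 CPM in HS (log2FC -2.92 ± 0.14, adjusted p = 1.23e-07). The most abundant histone H3 gene, Solyc01g086820, had 103, 106 and 150.4 CPM in control and 7.93, 9.28 and 9.84 CPM in HS (log2FC -3.73 ± 0.17), and the H2B gene Solyc02g038690 had 8.62, 9.51 and 13.6 CPM in control and 0.333, 0.643 and 0.475 CPM in HS. Control and HS did not overlap for any of the 9 genes, as for 67.6% of all genes tested and 90.0% of those described, and control replicate 3 was the highest control library in each. Summed over the list, the control libraries had 827, 836 and 1154 CPM and the HS libraries 112, 109 and 115 CPM. Copies of histone H3 can be near-identical in sequence, so the split of reads between them is uncertain.

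Genes of the cell cycle took both directions, by smaller amounts. Of 21 genes for cyclins and cell division, 5 were called lower and 2 higher (median -0.68), a smaller share of calls than the 55.0% over all described genes. The B-type cyclin gene Solyc01g009040 had 14.5, 14.8 and 14.4 CPM in control and 6.20, 3.93 and 3.60 CPM in HS (log2FC -1.67 ± 0.18), and the kinesin gene Solyc01g108670 had 45.6, 48.7 and 48.5 CPM in control and 16.8, 16.4 and 17.7 CPM in HS (log2FC -1.49 ± 0.08). In contrast, Solyc01g098080, a kinesin-like gene, rose, with 5.52, 6.27 and 6.29 CPM in control and 35.4, 34.3 and 32.2 CPM in HS (log2FC 2.49 ± 0.09).

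The proteinase inhibitors were the other list of described genes that fell almost as a whole. These proteins block digestive enzymes of herbivores, and in tomato leaves they accumulate after wounding through jasmonate. Of 19 genes, 15 were called lower and 0 higher, with a median log2FC of -2.54. They summed to 5850, 6171 and 8943 CPM in the control libraries and to 948, 845 and 1409 CPM in the HS libraries. The aspartic protease inhibitor gene Solyc03g098780 had 718, 671 and 989 CPM in control and 178, 214 and 268 CPM in HS (log2FC -1.85 ± 0.18). The cathepsin D inhibitor gene Solyc03g098790 had 398, 569.7 and 853 CPM in control and 13.1, 19.6 and 42.5 CPM in HS (log2FC -4.60 ± 0.44, adjusted p = 1.73e-05). For Solyc09g089500, a proteinase inhibitor of type 1, the values were 80.2, 106 and 144 CPM in control and 4.47, 2.50 and 5.90 CPM in HS (log2FC -4.67 ± 0.29), and for its relative Solyc09g084490 they were 740.2, 767 and 952 CPM in control and 156, 85.8 and 185 CPM in HS. Control and HS did not overlap for any of these. Replicate 3 was the highest control library in 15 and the highest HS library in 16 of the 19 genes, so the level of the list differed between replicates as well as between groups. Without control replicate 3, 16 inhibitor and 8 histone genes were called lower, and without HS replicate 3 these were 15 and 9. Of the called inhibitor genes, 5 were on chromosome 3, 3 on chromosome 6 and 6 on chromosome 9. The list holds described genes only, chosen in part by earlier tests of the mutants against WT. With all 24 libraries scaled together, it summed in control to 7077 ± 1717 CPM in WT (SD, n = 3). The mutants had 5049 ± 485 CPM in rs2z35, 5667 ± 1100 CPM in rs2z36 and 3436 ± 276 CPM in rs2z35 36. Such a choice can favour a high control level in WT, so the fall of the list is a description.

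**Figure D4:**
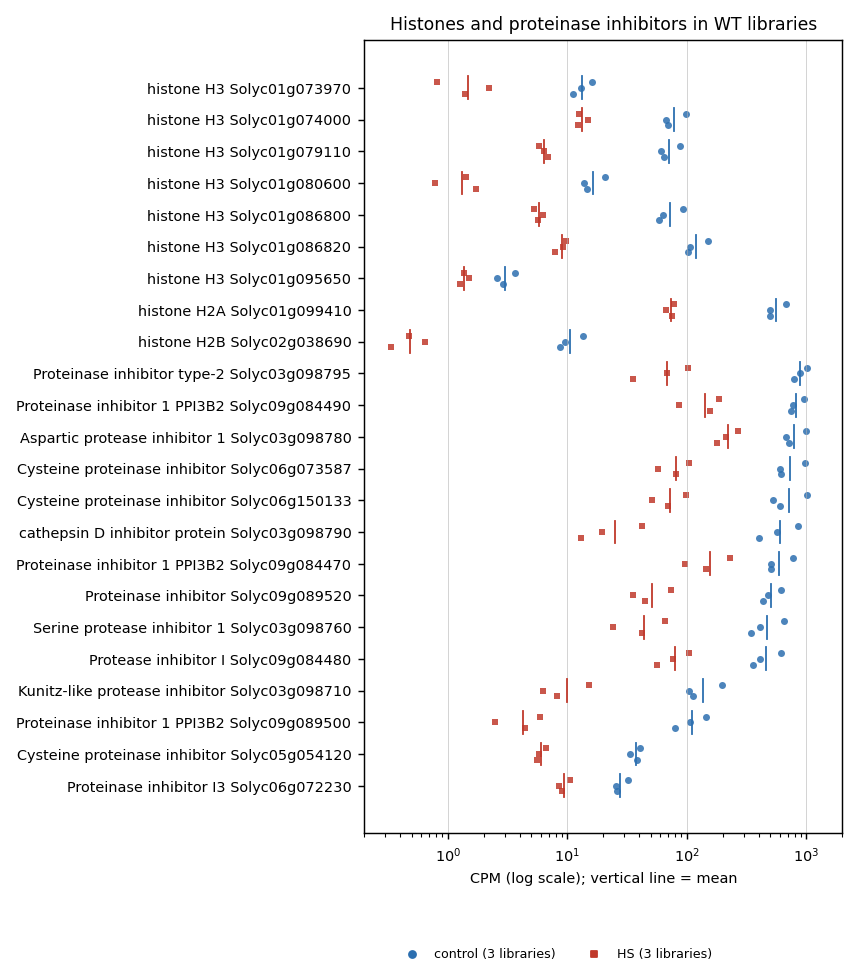
CPM (log axis) of the 9 described histone genes and of 14 of the 15 proteinase inhibitor genes called lower, those with a mean of at least 5 CPM, in the 3 control (blue circles) and 3 HS (red squares) WT libraries, with the mean as a line. HS lies below control for every gene, and control replicate 3 (upper point) is the highest control library of every histone gene.

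Other genes of defence and wounding took both directions. Lipoxygenases add oxygen to fatty acids as an early step to jasmonate and related compounds, and the lipoxygenase gene Solyc12g011033 had 31.95, 31.8 and 27.9 CPM in control and 1.87, 1.79 and 2.04 CPM in HS (log2FC -4.01 ± 0.12, adjusted p = 5.6e-09). Lipoxygenase C (Solyc01g006540) was called higher by a narrow margin, with 41.8, 53.1 and 30.1 CPM in control and 95.3, 89.5 and 69.8 CPM in HS (log2FC 1.02 ± 0.19). That call was lost without control replicate 3 (0.84), HS replicate 1 (0.94) or HS replicate 2 (0.99). The gene of a jasmonate ZIM domain protein, a family of repressors of jasmonate signalling, Solyc01g097060, had 1.08, 0.880 and 0.761 CPM in control and 12.5, 9.997 and 14.7 CPM in HS (log2FC 3.76 ± 0.20). Of 11 subtilisin-like proteases 8 were called lower and 1 higher (median -1.47). The SBT4A gene Solyc01g087780 had 58.8, 61.1 and 74.9 CPM in control and 8.93, 14.7 and 11.1 CPM in HS (log2FC -2.49 ± 0.17), and Solyc01g087800 had 14.7, 13.6 and 19.9 CPM in control and 0.133, 0.286 and 1.09 CPM in HS. Of 16 pathogenesis-related genes (chitinases, glucanases, thaumatin-like proteins), 7 were called lower and 1 higher, a share of calls near the 55.0% over all described genes. The thaumatin-like gene Solyc01g111320 had 9.85, 12.1 and 9.62 CPM in control and 2.60, 2.93 and 2.38 CPM in HS, and the exception, the acidic endochitinase gene Solyc01g095310, had 0.485, 0.211 and 0.160 CPM in control and 17.7, 10.9 and 11.5 CPM in HS.

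Among described genes for the leaf surface, calls were mostly lower, and cell wall genes were mixed. Of 12 genes for lipid transfer and wax synthesis, 6 were called lower and 0 higher (median -1). Outside this list, the gene Solyc01g095960, described as WSD1-like after an enzyme of wax esters in Arabidopsis, had 210.4, 228 and 238 CPM in control and 11.1, 7.85 and 17.6 CPM in HS (log2FC -4.21 ± 0.23). Among 10 ABC transporter genes, 6 were called lower and 1 higher. ABCG11 (Solyc01g105450), whose Arabidopsis counterpart exports cuticle lipids, had 493, 482 and 464 CPM in control and 85.7, 52.3 and 101.2 CPM in HS (log2FC -2.59 ± 0.20). The cellulose synthase gene Solyc12g015770 had 110.2, 89.98 and 63.5 CPM in control and 17.9, 15.2 and 16.6 CPM in HS (log2FC -2.40 ± 0.19). The list it belongs to, cellulose and wall polymers, was mixed, with 4 called higher and 5 lower of 12, and its median turned from 0.05 to -0.71 with total counts as library size. The COBRA-like gene Solyc01g065530 rose, with 17.7, 21.02 and 22.4 CPM in control and 123, 113 and 163 CPM in HS. In the phenylpropanoid pathway, which feeds lignin and flavonoids, 5 of 13 genes were called lower and 2 higher. Its entry enzyme phenylalanine ammonia-lyase (Solyc05g056170) had 87.9, 81.3 and 79.4 CPM in control and 24.7, 24.6 and 30.3 CPM in HS (log2FC -1.64 ± 0.10). Chalcone synthase 1 (Solyc09g091510), the entry to flavonoids, had 10.9, 11.4 and 6.77 CPM in control and 51.1, 26.6 and 21.7 CPM in HS (log2FC 1.77 ± 0.31), a call lost with total counts as library size. Cytochromes P450 were called lower in 9 and higher in 4 of 22 genes. Over all described genes 55.0% were called, 32.1% higher and 22.9% lower. The shares of calls for lipid transfer and wax synthesis, phenylpropanoids and cytochromes P450 are near that 55.0%. Those for ABC transporters and for cellulose and wall polymers are larger, in lists of few genes.

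Of 5 genes for ethylene synthesis and perception, 1 was called higher and 3 lower, and of 16 auxin response genes 5 and 7. Of 12 genes of the abscisic acid list, 6 were called higher and 2 lower, which turned to 2 and 4 with total counts as library size. Of 8 genes for gibberellin, cytokinin and brassinosteroid, 4 were called higher and 2 lower, and 2 and 2 with that scaling. ACC oxidase makes ethylene, and the gene Solyc02g036350 had 423, 379 and 375 CPM in control and 97.5, 118 and 114 CPM in HS (log2FC -1.84 ± 0.10), whereas the ethylene-forming enzyme gene Solyc12g098850 had 80.4, 44.9 and 71.3 CPM in control and 234, 269.8 and 232 CPM in HS (log2FC 1.90 ± 0.19). The GH3 gene Solyc10g008520, of a family that couples hormones such as auxin to amino acids, had 333, 267 and 371 CPM in control and 26.6, 37.5 and 48.7 CPM in HS (log2FC -3.10 ± 0.21). A second GH3 gene, Solyc01g095580, rose, with 29.3, 25.6 and 29.1 CPM in control and 86.01, 75.8 and 75.1 CPM in HS. That call was lost with total counts as library size (log2FC 0.74). A gibberellin-regulated gene, Solyc01g150176, rose from 8.99 ± 2.26 CPM in control to 128 ± 16.98 CPM in HS, and the gene of a cytokinin-activating enzyme, Solyc01g005680, fell from 3.86 ± 0.465 CPM in control to 0.594 ± 0.254 CPM in HS (SD, n = 3). Late embryogenesis abundant proteins protect cells that lose water, and the gene Solyc01g079590 had 34.4, 35.1 and 38.2 CPM in control and 207, 200.1 and 219 CPM in HS (log2FC 2.54 ± 0.08).

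Transport genes also parted within families. Of 6 aquaporin genes, 3 were called higher and 3 lower, and their median turned from 0.24 to -0.52 with total counts as library size. The plasma membrane aquaporin gene PIP1.2 (Solyc01g094690) had 45.4, 45.8 and 46.2 CPM in control and 151, 166 and 150.4 CPM in HS (log2FC 1.77 ± 0.07), and PIP2.4 (Solyc06g011350) had 9.85, 9.23 and 12.7 CPM in control and 0.600, 1.000 and 0.543 CPM in HS (log2FC -3.89 ± 0.24). The nitrate and peptide transporter family gene NPF1.2 (Solyc05g005910) had 3.32, 2.96 and 2.04 CPM in control and 504, 485 and 387 CPM in HS (log2FC 7.36 ± 0.19). An amino acid permease gene, Solyc12g088190, fell, with 76.97, 61.2 and 39.3 CPM in control and 3.47, 4.93 and 6.31 CPM in HS (log2FC -3.59 ± 0.28). Of 2 clock genes, the photoreceptor gene Solyc01g005300 (Adagio-like protein 1) fell from 149 ± 7.18 CPM in control to 51.1 ± 3 CPM in HS, and REVEILLE 7-like (Solyc02g036370) rose from 4.66 ± 0.505 CPM in control to 26.8 ± 4.58 CPM in HS (SD, n = 3). The largest decrease of a described gene with a mean of at least 10 CPM was that of an N-acetyltransferase, Solyc08g006765, with 191, 169.8 and 138 CPM in control and 2.93, 5.14 and 5.84 CPM in HS (log2FC -5.16 ± 0.22).

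Of 196 genes described as unknown protein, 98 were called higher and 19 lower, and 66 and 42 with total counts as library size. Solyc03g059205 had 0.523, 0.740 and 0.601 CPM in control and 919, 879 and 970.1 CPM in HS (log2FC 10.52 ± 0.14). A further 2289 genes called higher and 2087 called lower had no description in the tables used here, which says nothing of their function. Among the 10 most abundant genes of the HS libraries, Solyc02g088610 and Solyc06g083190 had none. Solyc02g088610 had 69.7, 68.2 and 58.8 CPM in control and 16559, 14891 and 16350.3 CPM in HS, and Solyc06g083190 had 207, 217 and 222 CPM in control and 15461, 14192 and 15436 CPM in HS. Both increases were smaller than those of the described genes in these 10, with log2FC of 7.92 ± 0.14 and 6.12 ± 0.12. The 10 most abundant genes of the control libraries were called in neither direction. The leading gene, Solyc07g064130, had 6139, 5742 and 5863 CPM in control and 8412, 7118 and 8357 CPM in HS (log2FC 0.43 ± 0.10, below 0 with total counts as library size).

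The HS response of WT was set beside that of the mutants, each against its own control libraries, so that the WT response and a mutant response share no library. The same 6 WT libraries stand against all 3 mutants, so agreement over the mutants is not that of 3 independent results. Whether the HS counts of WT and mutants were adjusted together with ComBat-Seq is not stated, so their responses may not be independent either. Of the 3055 genes called higher in WT, 2322 (76.0%) were called higher in rs2z35, 2323 (76.0%) in rs2z36 and 2472 (80.9%) in rs2z35 36. Of the 2634 genes called lower, 2018 (76.6%), 1967 (74.7%) and 2087 (79.2%) were called lower. No gene was called in opposite directions. In all, 22.8%, 22.7% and 25.1% of the tested genes were called in rs2z35, rs2z36 and rs2z35 36. The histone list had medians of -3.49 in WT, -2.89 in rs2z35, -3.03 in rs2z36 and -3.05 in rs2z35 36. The proteinase inhibitors had -2.54 in WT, -2.38 in rs2z35, -2.64 in rs2z36 and -2.33 in rs2z35 36. For sHSPs the medians were 9.95 in WT, 8.77 in rs2z35, 8.62 in rs2z36 and 8.94 in rs2z35 36, and for HSP70 they were 9.57 in WT, 8.60 in rs2z35, 8.27 in rs2z36 and 8.44 in rs2z35 36, lower in all 3 mutants than in WT.

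The interaction of genotype and HS was fitted on all 24 libraries, with the same 6 WT libraries in each of the 3 terms. It called 3 genes for rs2z35, 26 for rs2z36 and 10 for rs2z35 36, which is 0.0122%, 0.106% and 0.0407% of the genes tested. Of these, 2, 20 and 6 belonged to the chaperone lists, all with a smaller log2FC in the mutant. Those lists hold described genes only, and descriptions came in part from genes that differed between mutants and WT in earlier tests. The counts in the lists are therefore no test of them. These counts varied with the method. DESeq2 called 42, 43 and 31 genes, and the fit on WT and 1 mutant called 1, 3 and 21. The fit with replicate number within condition as a block, apart for control and HS, called 0, 13 and 0. Leaving out each of the 6 WT libraries in turn gave 0 to 1, 12 to 23 and 1 to 7 calls, the fewest without control replicate 3 or HS replicate 1 for rs2z35, without HS replicate 3 for rs2z36, and without control replicate 2 or HS replicate 3 for rs2z35 36. For HSP90 (Solyc06g036290) the difference to WT was -1.23 ± 0.17 SE in rs2z36 (adjusted p = 0.000803) and -1.25 ± 0.17 SE in rs2z35 36 (adjusted p = 0.00222). With all 24 libraries scaled together, its level in control was 45 ± 3.39 CPM in WT, 74.7 ± 4.24 CPM in rs2z35, 89.6 ± 15.8 CPM in rs2z36 and 90.1 ± 4.43 CPM in rs2z35 36 (SD, n = 3), and in HS it was 25521 ± 1662 CPM in WT, 21956 ± 2164 CPM in rs2z35, 21655 ± 1776 CPM in rs2z36 and 21555 ± 1532 CPM in rs2z35 36 (SD, n = 3). Each mutant mean was above that of WT in control and below it in HS, which was not tested between genotypes within a condition. The 32 genes with a log2FC above 9 and at least 1000 CPM in WT HS were chosen by their WT values, which favours a low control level in WT, and their levels are given as a description. In WT they stood in control at a median of 0.113% of their HS level, with a range from 0.0756% to 0.184% over genes, and the medians were 0.24%, 0.261% and 0.226% in rs2z35, rs2z36 and rs2z35 36. The 3 WT control libraries had medians between 0.105% and 0.123%, below each of the 9 mutant control libraries, at 0.21% to 0.336%. The 17 sHSP genes were chosen by having a description, which rests in part on earlier tests of the mutants against WT. Their sums are therefore a description too. In control they summed to 150 ± 9.16 CPM in WT, 273 ± 31.5 in rs2z35, 337 ± 68.6 in rs2z36 and 277 ± 11.8 in rs2z35 36 (SD, n = 3). In HS they summed to 121194 ± 6043, 108210 ± 8710, 111524 ± 7922 and 109068 ± 6983 CPM, with overlapping libraries. The part of the control levels in the called interactions was not tested.

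**Figure D5:**
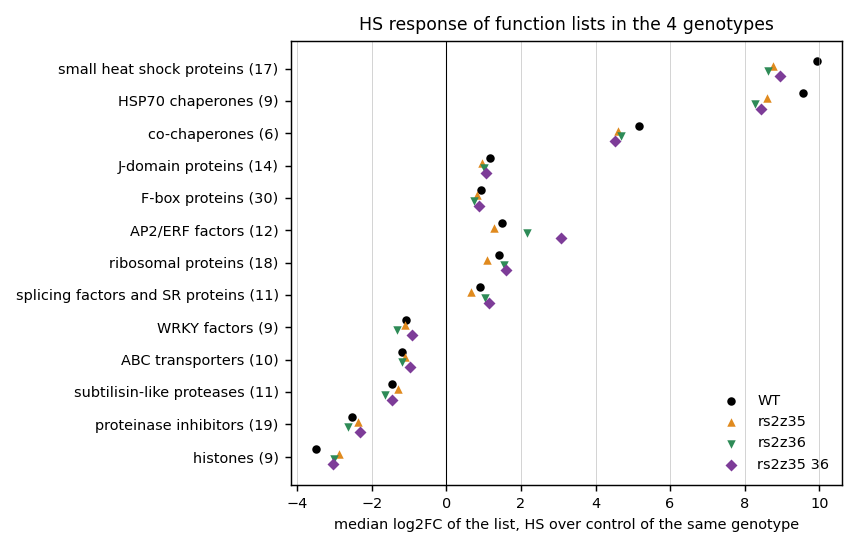
Median log2FC (HS over control of the same genotype) of 13 function lists in WT (black circles), rs2z35 (orange), rs2z36 (green) and rs2z35 36 (violet), with the number of tested genes in brackets. The lists keep their direction in all genotypes, and WT has the largest median for sHSPs and HSP70 and the lowest for histones.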

How the data were processed

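RNA was prepared from leaves with TriZol and Direct-zol and sequenced as paired-end, non-directional libraries of polyadenylated RNA. The deposited files hold read counts per gene, which the authors made with STAR on the tomato genome SL4.0 (ITAG4.0) and htseq-count (HTSeq 0.9.1 in the submitters' processing notes). The authors adjusted the HS counts with ComBat-Seq, and the batch variable is not given in the sources used here. WT genes whose reads added up to 10 or more entered edgeR 4.0.16 in R 4.3.3 (TMM scaling, quasi-likelihood test, Benjamini-Hochberg adjustment over 22692 genes). A call required a log2FC beyond 1 in either direction and an adjusted p below 0.01. The interaction was fitted on all 24 libraries. Alternatives were DESeq2 1.42.0, apeglm 1.24.0, other scalings and filters, a replicate block, and leaving out each library. The procedure was tested on simulated data with few changed genes, as many raised as lowered. Those data held no shift of the bulk of the genes, so they cannot decide between the scalings.

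Descriptions of 2404 genes were read from the study's supplementary tables, of which 2388 were tested. The fold changes and p-values in those tables were not used. Named genes are HSFA2, RS2Z35 and RS2Z36, the 10 most abundant genes of each group, the 5 largest called changes in each direction with a description and at least 10 CPM, and in each list the 2 most abundant called members and the largest called increase and decrease with at least 5 CPM. Every tested HSP90, HSF, MBF1 and Clp gene could be named too, and not every gene that met the rule is described. The members, lists and rule were chosen with earlier results of these data known.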

Additional observations from a re-analysis of the deposited data

Results flagged for a closer look

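The HS response of some genes named above differed between a mutant and WT by the interaction term of edgeR's quasi-likelihood test, with a smaller log2FC in the mutant in each case. Values are the log2FC of the mutant minus that of WT. With replicate number within condition as a block, 0 genes were called for rs2z35, 13 for rs2z36 and 0 for rs2z35 36. There edgeR still gave 1332, 1618 and 1588 genes at an unadjusted p under 0.05. DESeq2 without the block called 42, 43 and 31. Leaving out each WT library in turn left 0 to 1, 12 to 23 and 1 to 7 calls.

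Among sHSP genes, the difference in rs2z36 was -1.39 (adjusted p = 0.0051) for the class II gene Solyc03g007890 and -1.69 (adjusted p = 0.000655) for the class IV gene Solyc01g102960. It was -1.02 (adjusted p = 0.00278) for the peroxisomal gene Solyc04g014480 and -1.27 (adjusted p = 0.000581) for the mitochondrial gene Solyc08g078700. Among class I genes it was -1.32 (adjusted p = 0.00278) for Solyc06g076560, -1.18 (adjusted p = 0.001) for Solyc06g076520 and -1.54 (adjusted p = 0.000666) for Solyc09g015000. For Solyc11g020330 it was -1.54 (adjusted p = 0.000581). The same gene had -1.41 (adjusted p = 0.00612) in rs2z35, the only named gene whose interaction was called for rs2z35. In rs2z35 36 the difference was -1.03 (adjusted p = 0.00756) for Solyc08g078700 and -1.09 (adjusted p = 0.00545) for Solyc06g076520.

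Among HSP70 genes, the difference in rs2z36 was -1.43 (adjusted p = 0.00346) for Solyc03g117630, -1.51 (adjusted p = 0.00536) for Solyc11g066100, -1.30 (adjusted p = 0.000581) for Solyc04g011440 and -1.54 (adjusted p = 0.00751) for Solyc09g075950. The last pair was also called for rs2z35 36, with -1.14 (adjusted p = 0.00445) for Solyc04g011440 and -1.69 (adjusted p = 0.00672) for Solyc09g075950. HSP90 (Solyc06g036290) had -1.23 in rs2z36 (adjusted p = 0.000803) and -1.25 in rs2z35 36 (adjusted p = 0.00222). The heat shock protein gene Solyc03g115230 had -1.35 (adjusted p = 0.00546), the BAG gene Solyc01g095320 -1.26 (adjusted p = 0.00346), MBF1c (Solyc01g104740) -1.46 (adjusted p = 0.0059) and the gene Solyc03g059205 of unknown function -1.84 (adjusted p = 0.00546), all in rs2z36. The part of the control levels, which were higher in the mutants for the strongly induced genes, was not tested.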

How the results depend on the processing

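With total counts as library size, the WT calls became 9418 (1547 higher, 7871 lower), 16.4% of them higher against 53.7% with TMM, and the calls in rs2z35, rs2z36 and rs2z35 36 became 8263, 8455 and 9107. Under that scaling RS2Z35 (Solyc05g054920) had a log2FC of -0.47 and Solyc07g064130 one of -0.33, opposite in sign to the main values, and the calls of Solyc01g006540 (0.26), Solyc01g088610 (0.55), Solyc01g095580 (0.74), RS2Z36 (Solyc09g005980, 0.25) and chalcone synthase 1 (Solyc09g091510) were lost. The TMM factors were 1.291 to 1.314 in control and 0.7526 to 0.7924 in HS. Every other alternative kept the number of WT calls within 1.5 times: DESeq2 gave 5603, apeglm 5452, DESeq2 size factors 5674, no filter 5714, filterByExpr 5351 and a fit on all 24 libraries 5860. Leaving out each WT library in turn gave 5085 to 5563 WT calls (2770 to 2972 higher, 2315 to 2591 lower) and 425 to 453 calls over the function lists. The mutants had 4530 to 4813, 4377 to 5146 and 5092 to 5739 calls when each of their libraries was left out. The log2FC of the HSF gene Solyc02g079180, near 0 in level, was -0.49 to 0.41 when each library was left out, and above 0 without control replicate 2 (0.41) or HS replicate 1 (0.01).

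The interaction counts of 3, 26 and 10 for rs2z35, rs2z36 and rs2z35 36 moved most. DESeq2 gave 42, 43 and 31. Total counts gave 10 for rs2z35 and 16 for rs2z35 36. The block of replicate number within condition in edgeR gave 0, 13 and 0, with 1332, 1618 and 1588 genes at an unadjusted p under 0.05 (1820, 2152 and 2103 without the block). The fit on WT and 1 mutant gave 1, 3 and 21. Leaving out each WT library gave 0 to 1, 12 to 23 and 1 to 7. The cause was not tested.

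Replicate numbers were checked as a pairing: deviations from the group means of WT control and HS libraries of the same number correlated at 0.0757, 0.0226 and 0.2 over 18450 genes, so they were not taken as pairs. The replicate block gave 5628 WT calls (2990 higher, 2638 lower), and 4772, 4683 and 5563 in the mutants, and changed no call of the 110 named genes.

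Several limits apply. The ComBat-Seq adjustment of HS counts alone can shift HS levels and their spread, and it cannot be told apart from heat. The descriptions cover mostly genes called in earlier tests, so shares of called members say little, and list medians stand against 0.6 for all described genes. Genes near 0 in control have uncertain fold changes, 113 of the called genes had 0 control counts, and genes below about 1 CPM rest on few reads. The search of promoters for heat shock elements was not run, as no sequences were used here.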
